A study of Mus musculus with 4 samples.

Results

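Open chromatin inside protein-coding genes, away from their ends, was examined in ATAC-seq peak lists of newborn mouse heart. ATAC-seq uses a transposase that cuts accessible DNA, so a peak marks a stretch where many cuts fell. Peaks on chromosomes 1 to 19 that overlapped by 1 bp or more were merged into 20624 regions, and 6501 of these were intragenic regions, with a midpoint inside a protein-coding gene and more than 1 kb from the start or end of every annotated gene of any kind. The remainder were 9192 regions within 1 kb of a gene boundary (boundary regions) and 4931 intergenic regions. The interior in which a member could lie (eligible interior) came to 921 Mb, so that the 6501 members stood at 7.06 per Mb.

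The 4 libraries comprised 2 of wild-type (WT) and 2 of miR-187 mice, all taken at postnatal day 0 (P0), and are called WT-r1, WT-r2, miR187-r1 and miR187-r2 after their group and replicate number. Wherever 4 values follow each other without names, they stand in this order. In the miR-187 mice an extra copy of the microRNA mmu-miR-187 was knocked into the Rosa26 locus under the Tek (Tie2) promoter and enhancer, which is active in endothelial cells and in part of the blood lineage, on a C57BL/6J background. The labels name only heart, whereas the study describes CD31 bead-labelled cardiac endothelial cells as input, at 50000 cells per library. For its mouse ATAC tracks the study names the genotype KI/KI, homozygous for the knock-in, while the labels give no zygosity. Nothing in the labels says whether the replicates were separate animals or pools, so the p-values measure only the spread between these 4 libraries. Read totals were not used here. The background read density implied by the peak values was 1750 reads per Mb in WT-r1, 5225 in WT-r2, 2015 in miR187-r1 and 1030 in miR187-r2. The library of miR187-r2 stood apart with 1461 peaks, against 7407 to 12155 in the others, so most values are given per library. With 2 libraries per group the exact permutation test cannot go below p = 0.33, and the exact sign-flip test over 4 libraries cannot go below p = 0.13 (2 of 16 sign assignments).

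Accessible sites inside genes are of several kinds. Many lie in introns and act as enhancers, which differ widely between cell types, while others are alternative promoters at which a shorter transcript of the same gene begins. Promoters of widely expressed genes often lie in CpG islands, stretches that are rich in G and C and have kept the CpG dinucleotide that most of the mammalian genome has lost. MicroRNAs such as miR-187 act mainly on messenger RNAs in the cytoplasm.

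The RefSeq start table (GRCm38, the same chromosomes as mm10) held 3627 annotated start sites inside protein-coding genes and more than 1 kb from every boundary, called internal starts here. The table gives a window of 300 bases around each start and lacks 1 chromosome, which leaves 6267 members for this comparison. Of these, 641 members (10.2%) overlapped an internal start window, and at 636 of the 641 members the start belonged to a protein-coding host gene of that member. For 8 of them the sequence is shown because they stand under members that were found in all 4 lists: the 5 with the highest mean rank of −log10 q (the significance of the peak), a pair with several motif copies, and Lmna, which had almost no CpG. Each line holds the 120 bases just before the start, 5′ to 3′, and every printed stretch lay inside its member. Capitals mark matches on either strand to the GC box GGGCGG, the CCAAT box, the ETS family core CCGGAAG, the core of the NRF1 site TGCGCA, the cyclic AMP element TGACGTCA, the AP-1 element TGANTCA, the TATA box TATAAA or the E-box CACGTG, and neighbouring or overlapping matches run together. The stretches were chr7:83892146-83892265 (plus strand) for Mesd, chr3:65958250-65958369 (minus strand) for Ccnl1, chr2:22895402-22895521 (plus strand) for Pdss1, chr1:46853619-46853738 (minus strand) for Slc39a10, chr2:154613248-154613367 (plus strand) for Zfp341, chr1:165236959-165237078 (minus strand) for Tiprl, chr11:77348160-77348279 (plus strand) for Ssh2 and chr3:88503353-88503472 (minus strand) for Lmna.
Mesd: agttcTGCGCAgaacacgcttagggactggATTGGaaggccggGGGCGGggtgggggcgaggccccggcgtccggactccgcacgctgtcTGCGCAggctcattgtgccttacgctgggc
Ccnl1: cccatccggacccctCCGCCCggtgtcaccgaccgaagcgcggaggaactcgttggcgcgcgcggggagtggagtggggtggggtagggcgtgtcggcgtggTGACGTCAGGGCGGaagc
Pdss1: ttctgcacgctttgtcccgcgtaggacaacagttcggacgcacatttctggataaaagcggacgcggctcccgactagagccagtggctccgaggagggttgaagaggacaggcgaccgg
Slc39a10: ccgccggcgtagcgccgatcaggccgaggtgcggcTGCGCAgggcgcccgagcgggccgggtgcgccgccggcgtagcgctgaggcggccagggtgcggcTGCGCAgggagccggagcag
Zfp341: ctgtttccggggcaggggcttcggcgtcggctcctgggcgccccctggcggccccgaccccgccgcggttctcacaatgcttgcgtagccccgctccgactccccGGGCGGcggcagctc
Tiprl: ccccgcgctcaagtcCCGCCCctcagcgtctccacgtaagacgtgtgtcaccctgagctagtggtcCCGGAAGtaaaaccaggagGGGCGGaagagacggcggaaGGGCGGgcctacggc
Ssh2: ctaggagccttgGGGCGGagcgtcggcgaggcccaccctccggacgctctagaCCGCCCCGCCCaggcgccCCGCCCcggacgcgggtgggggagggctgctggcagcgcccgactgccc
Lmna: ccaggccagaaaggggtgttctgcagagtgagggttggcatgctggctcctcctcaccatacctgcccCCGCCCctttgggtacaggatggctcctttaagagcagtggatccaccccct

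Mesd encodes a chaperone for LRP receptors, Ccnl1 the cyclin L1 of splicing, Pdss1 a synthase of the coenzyme Q side chain, Slc39a10 a zinc importer, Zfp341 a zinc finger transcription factor, Tiprl a regulator of phosphatases, Ssh2 a phosphatase of the actin-severing protein cofilin and Lmna the nuclear lamins A and C. The stretch before the Mesd start held 2 copies of the NRF1 core together with 1 CCAAT box and 1 GC box. The stretch before Ccnl1 held a cyclic AMP element that ran straight into a GC box, and that before Tiprl held 3 GC boxes and an ETS match. The Slc39a10 stretch held 2 copies of the NRF1 core, the Ssh2 stretch 4 GC boxes, and the Pdss1 stretch none of the motifs searched. Over the window of 300 bases the ratio of observed to expected CpG was 0.862 for Mesd (27 CpG), 0.981 for Ccnl1 (37 CpG) and 1.20 for Slc39a10 (47 CpG), but 0.0426 for Lmna (1 CpG). The member at this Lmna start had its midpoint 6507 bp from the nearest gene boundary and was found in all 4 lists.

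The windows under members differed in base composition from those without. The 701 internal start windows that a member overlapped had a median GC content of 61.7% and a median CpG ratio of 0.734, against 52.0% and 0.297 in the 2926 internal windows with no member. Over all 31365 start windows the medians were 53% and 0.388. The median CpG ratio was 0.701 in windows under members found in 1 library, 0.749 in 2, 0.778 in 3 and 0.849 in 4, the last set holding 22 windows. A GC box stood in 62.1% of the windows with a member, in 28.7% of internal windows without one and in 36.0% of all start windows. The ETS match stood in 16.7%, 3.93% and 9.0% of the same sets, the NRF1 core in 13.6%, 4.65% and 7.74%, and the cyclic AMP element in 3.00%, 0.991% and 1.83%. The TATA box went the other way, with 4.99%, 13.5% and 13.6%. The CCAAT box (33.5%, 35% and 37.3%) and the AP-1 element (6.28%, 8.10% and 7.85%) stood at similar shares in all 3 sets, and the E-box at 8.99%, 4.92% and 7.14%. The GC box and ETS core are themselves rich in G and C, and these shares are descriptions of letters, not of bound factors.

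Members at internal starts were shared between libraries far more often than other members. In WT-r1, 330 of 2639 members (12.5%, Wilson interval 11.3 to 13.8%) lay at an internal start, and 78.5% of these were found in at least 1 of the other 3 libraries, against 28.8% of its other members. In WT-r2 the numbers were 474 of 3095 members (15.3%), of which 65.2% were found elsewhere, against 31.3%. In miR187-r1 they were 293 of 1869 (15.7%), with 78.2% against 39.5%, and in miR187-r2 they were 43 of 407 (10.6%), with 86.0% against 27.7%. The gap was 45.1 ± 11 percentage points (SD, n = 4 libraries) and had the same sign in 4 of 4 (exact sign-flip p = 0.13, the smallest possible). A shared member counts in every library that held it, so the 4 gaps are not independent of each other. Compared within deciles of peak strength it was 38.7 points, also in the same direction in every library (exact sign-flip p = 0.13). Against boundary regions, the recovery of members at internal starts differed by 4.08 ± 3.39 points with the members higher in 3 of 4 libraries (exact sign-flip p = 0.25). With the lists cut to equal length 19.9% of members lay at an internal start, and with −log10 q at 5 or more 20.8%. The share was 6.16% of members found in 1 library, 21.1% of those in 2, 35.1% of those in 3 and 46.2% of those in 4 (18 of 39). Overlap with a start window was scored on the merged region, which spans the peaks of all lists that held it. A wider region is more likely to meet a window. How much of the recovery gap and of these shares comes from width was not tested.

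**Figure D1:**
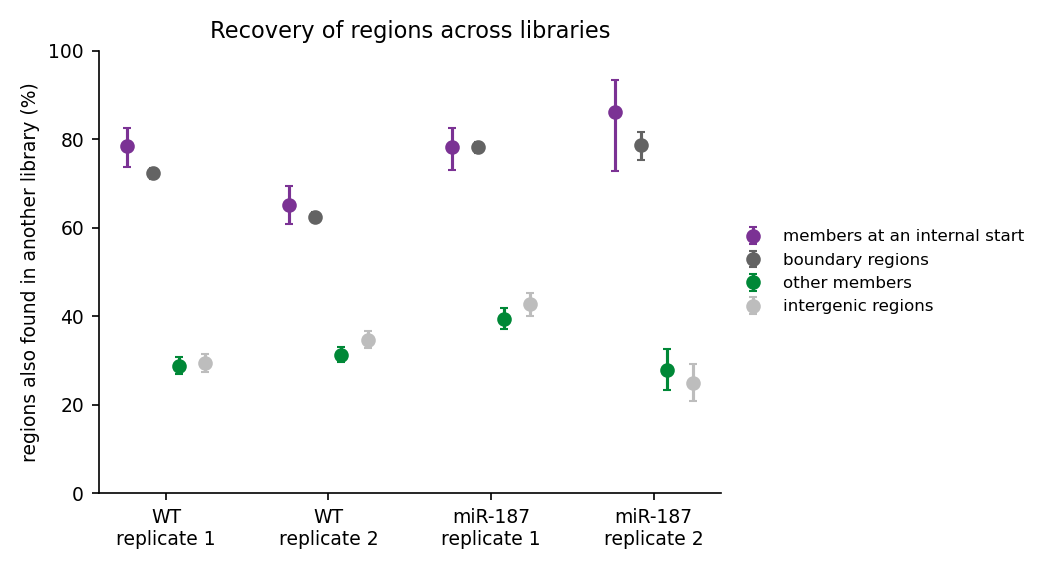
Percent of the regions of each library that were also found in at least 1 of the other 3 libraries, for members at an internal start (purple), boundary regions (dark grey), other members (green) and intergenic regions (light grey), with bars for the 95% Wilson interval. Members at internal starts (65.2 to 86.0%) sit beside the boundary regions, and other members (27.7 to 39.5%) sit beside the intergenic regions.

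Peaks at internal starts were wider in all 4 libraries and ranked higher in 3 of them. Wider peaks are also more likely to overlap a start window. The median percentile rank of −log10 q within a list was 63.8 for members at an internal start and 42.4 for other members in WT-r1, 64.6 and 38.6 in WT-r2, 59.2 and 42.0 in miR187-r1, and 44.1 for both in miR187-r2. Median peak widths were 303 and 244 bp, 375 and 280 bp, 327 and 255 bp, and 230 and 200 bp in the same order. The median pileup at the summit, solved from the peak values, was 10 reads against 7 in WT-r1, 16 against 12 in WT-r2, 10 against 9 in miR187-r1 and 6 against 6 in miR187-r2. Within 0.5 kb of an internal start the density was 110 members per Mb in WT-r1, 164 in WT-r2, 99.6 in miR187-r1 and 15.0 in miR187-r2. More than 10 kb from any internal start it was 2.48, 2.72, 1.67 and 0.383 per Mb. Most members were nevertheless far from one, since 5031 of the 6267 lay more than 10 kb away.

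The comparison of genotypes asked whether fewer sites inside genes were open with miR-187. A peak at a member was present 2735 times in WT-r1, 3223 times in WT-r2, 1928 times in miR187-r1 and 422 times in miR187-r2. Both miR-187 libraries were below both WT libraries, by 1804 members on average (the WT mean was 2979 ± 345 and the miR-187 mean 1175 ± 1065, SD of 2 libraries, exact permutation p = 0.33). The spread within miR-187 was the wider one, and the order of the 4 counts was that of all regions in the lists. With −log10 q at 5 or more the members numbered 431 and 1180 in WT and 503 and 36 in miR-187. The groups then overlapped (difference -536, exact permutation p = 0.667). As a share of the regions of a library, members made up 29.5% (Wilson interval 28.6 to 30.4%), 26.6% (25.9 to 27.4%), 26.2% (25.2 to 27.2%) and 28.9% (26.6 to 31.3%) in the same order. The groups overlapped in this share, which differed by -0.518 points (exact permutation p = 0.667). With the lists cut to the 1461 strongest peaks each, the members numbered 310 and 230 in WT and 315 and 421 in miR-187. The difference was 98 (exact permutation p = 0.33). This setting left the list of miR187-r2 uncut, with members at 28.8% of its regions. Among the strongest peaks of WT-r1, WT-r2 and miR187-r1 members made up 21.2%, 15.8% and 21.6%. The turned sign therefore cannot be read as a difference between genotypes. The share of members at internal starts averaged 13.9 ± 1.99% for WT and 13.1 ± 3.61% for miR-187 (SD of 2 libraries each, exact permutation p = 1). Depth, list length and genotype cannot be told apart in these 4 libraries.

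**Figure D2:**
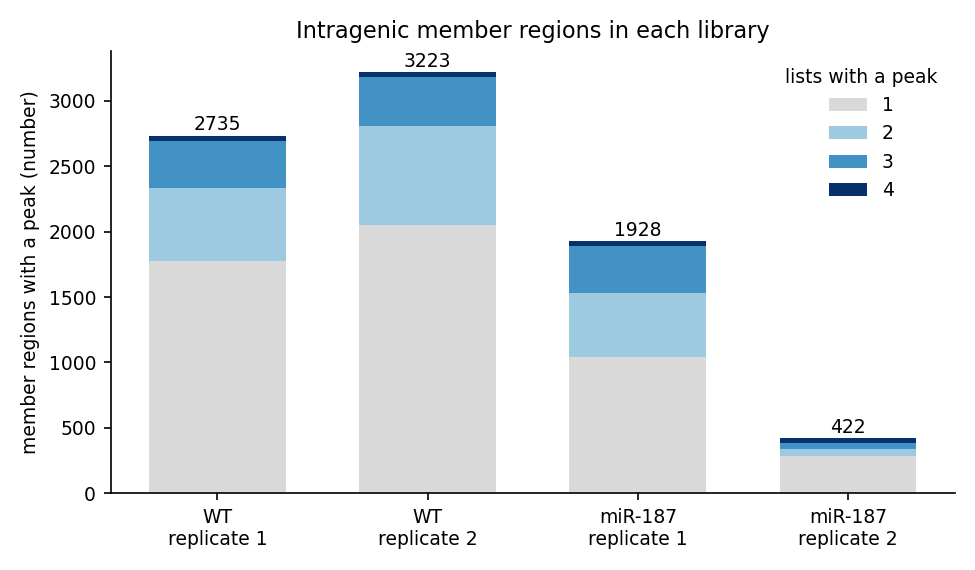
Number of members with a peak in each library, with the bars divided by how many of the 4 lists held a peak at the same member. The palest part, members found in that list alone, is the largest in every bar, and the bar of miR187-r2 reaches 422.

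Recovery was lower for members than for regions at gene boundaries. Of the 6501 members, 5152 (79.2%) were found in 1 library, 930 in 2, 380 in 3 and 39 (0.60%) in all 4. Over all regions 32.5% had a peak in 2 or more lists, against 20.8% of members, 48.5% of boundary regions and 18.1% of intergenic regions. All 4 lists held 1.43% of all regions and 2.45% of boundary regions. Within a library, the share of its members found in another one was 35.1% in WT-r1, 36.3% in WT-r2, 45.9% in miR187-r1 and 33.2% in miR187-r2, against 72.3%, 62.4%, 78.2% and 78.6% of its boundary regions. The gap was -35.3 ± 8.18 points (SD, n = 4, the same sign in 4 of 4, exact sign-flip p = 0.13). It was -31.7 points within deciles of peak strength and -15.4 points with the lists cut to equal length. Among the strongest 10% of peaks of a library the gap was -16.6, -8.14, -16.9 and -40.9 points in library order, and among the weakest 10% it was -32.7, -19.5, -32.3 and -34.2. It was thus smaller among the strongest peaks in WT-r1, WT-r2 and miR187-r1 but not in miR187-r2, whose strongest set held 41 members. Against intergenic regions the members were recovered slightly more often, by 4.73 ± 2.91 points (4 of 4 libraries, exact sign-flip p = 0.13).

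Member peaks were also weaker than boundary peaks. The median rank of −log10 q was 45.5, 42.0, 44.2 and 44.1 for members in WT-r1, WT-r2, miR187-r1 and miR187-r2, and 58.8, 57.9, 55.5 and 54.5 for boundary regions. The difference was -12.7 ± 2.45 percentile points (4 of 4 libraries, exact sign-flip p = 0.13). It was -4.62 points with the lists cut to equal length (exact sign-flip p = 0.25). Against intergenic regions it was -0.0182 ± 2.24 points, with both signs seen (exact sign-flip p = 1). Median fold enrichment at member summits was 5.13, 4.84, 5.41 and 5.30, and median widths were 252, 288, 266 and 205.5 bp. The widths were 24 to 85 bp below those of boundary peaks.

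The most members were shared within WT, whereas the overlap relative to list size was highest between WT-r2 and miR187-r1. WT-r1 and WT-r2 shared 794 members, which is 29.0% of the first list and 24.6% of the second. WT-r2 shared 722 members with miR187-r1, which is 22.4% and 37.4% of the lists. The miR-187 replicates shared 71 members (3.68% of the members of replicate 1 and 16.8% of those of replicate 2). The Jaccard index (shared members over all members of both lists) was 15.4% within WT, 3.12% within miR-187 and between 2.70% and 16.3% for the 4 mixed pairs. The mean within groups exceeded that between groups by 0.553 points (exact permutation over 3 pairings, p = 1).

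Among the 39 members found in all 4 lists, the 4 with the highest mean rank of −log10 q stood well above the next. The member in Zc3h7a, which encodes a CCCH zinc finger protein (chr16:11143846-11144390), gave fold enrichments of 14.8 and 11.4 in WT and 12.8 and 12.2 in miR-187. The member at chr16:57391375-57391765 lay in both Filip1l and Cmss1, whose gene bodies overlap, and gave 16.3, 11.2, 16.4 and 11.7. A member in Camk1d, a calmodulin-dependent kinase gene (chr2:5379043-5379474), gave 16.5, 14.3, 12.3 and 10.0, and that in Aida (chr1:183299068-183299597) gave 11.3, 11.1, 10.8 and 8.67. None of these overlapped an internal start window. The WT and miR-187 values overlapped in the first 2 of these, while both WT values were the higher ones in Camk1d and Aida. Each member was high also in miR187-r2, where 16 to 20 reads stood at the summit against a median of 6. The next member by mean rank, in Abca4 (chr3:122122044-122122551), gave 6.94, 5.65, 6.80 and 6.58.

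The remaining members found in all 4 lists were of moderate strength, and most of the highest ranked lay at internal starts. The Mesd member gave fold enrichments of 7.0, 7.23, 6.86 and 5.47, in the order WT-r1, WT-r2, miR187-r1 and miR187-r2. The Ccnl1 member gave 5.56, 7.0, 5.66 and 7.33, and the Pdss1 member 7.74, 5.67, 9.90 and 5.30. The Slc39a10 member gave 6.20, 5.74, 8.55 and 4.88. The WT and miR-187 values overlapped at Ccnl1, Pdss1 and Slc39a10, and both WT values were the higher ones at Mesd. The member in Best1, a chloride channel gene, gave 6.19, 6.07, 10.8 and 4.86 and lay at no annotated start (chr19:9992903-9993363).

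Members that both WT libraries held and both miR-187 libraries lacked (WT-only) numbered 396, or 6.09% of members, against 8.6% of all regions and 12.1% of boundary regions. This count needs 2 lists to hold a peak, which members do less often. Among the 794 members with a peak in both WT lists, 49.9% (Wilson interval 46.4 to 53.3%) had none in miR-187, against 38.3% (36.5 to 40.1%) of boundary regions and 52.5% (48.2 to 56.8%) of intergenic regions. At internal starts the share was 39.7% (33.6 to 46.0%) of 237 members and elsewhere 54.5% (50.3 to 58.7%) of 528. Of the 794 members, miR187-r1 kept 47.1% and miR187-r2 7.93%, against 59.0% and 10.5% of boundary regions and 45.5% and 8.04% of intergenic regions. At internal starts these shares were 57.4% and 10.5%, and elsewhere 42.6% and 6.82%. The 5 WT-only members that ranked highest lay in Tpm1, Acod1, Myo1h, Btbd10 and Ctdp1. Tpm1 encodes tropomyosin 1, an actin-binding protein of muscle, and this one of its 2 members (chr9:67043553-67044247) gave fold enrichments of 9.05 and 8.26 in WT. The member in Acod1, which makes itaconate in macrophages (chr14:103051365-103051743), gave 9.78 and 9.43. Those in Myo1h (9.20 and 8.10) and Btbd10 (8.13 and 8.72) lay at internal starts, and that in Ctdp1, an RNA polymerase II phosphatase gene, gave 9.62 and 6.45. No peak was called at these 5 members in either miR-187 library, whose lists were the shorter ones.

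The reverse pattern (miR-187-only) was rare, with 11 members (0.169%) against 0.155% of all regions. With the lists cut to equal length, 1073 members among 4536 regions remained, against 6501 among 20624 as deposited. Of these 1073, the WT-only set held 34 members and the miR-187-only set 14. At this setting both sets were counted over members only, so they cannot be set against all regions. Among the 11 miR-187-only members of the lists as deposited, the highest ranked lay in Pfkfb2, a regulator of glycolysis. It stood at an internal start (chr1:130715520-130715947), with fold enrichments of 6.47 and 7.58 in miR-187. The other highest ranked lay in Fstl1 (5.28 and 5.92), Slc22a4 (8.33 and 5.47), Pdlim2 (5.95 and 5.41) and Rabgap1l (6.67 and 5.30). Of the other pairs of lists, WT-r2 and miR187-r1 alone held 331 members (5.09%, against 7.96% of all regions). WT-r1 and miR187-r1 alone held 147 (2.26%, against 2.54%). WT-r2 and miR187-r2 alone held 29 (0.446%, against 0.621%), and WT-r1 and miR187-r2 alone 16 (0.246%, against 0.194%).

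Member density was higher near a gene boundary than deep inside a gene. The density was 6.27 per Mb at 1 to 2 kb from the nearest boundary and 1.36 at over 50 kb in WT-r1, and 9.67 and 1.54 in WT-r2. In miR187-r1 it was 5.36 and 0.831, and in miR187-r2 1.20 and 0.250. As a log2 ratio of the density at 1 to 5 kb to that at over 20 kb, this came to 1.15, 1.49, 1.43 and 1.12, with a mean of 1.30 ± 0.19 (SD, n = 4, exact sign-flip p = 0.13). The ratio was 1.02 among members that overlapped no internal start window. Of members at 1 to 2 kb 29.3% were found in 2 or more libraries, and of those at over 50 kb 14.1%.

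Over all libraries the density rose towards the 5′ end of the host up to 1 to 2 kb, but not over the last steps towards its 3′ end. Towards the 3′ end it was 7.63 members per Mb at 5 to 10 kb, 7.27 at 2 to 5 kb and 6.03 at 1 to 2 kb. The strand of the host was known for 16456 protein-coding genes, and the nearest boundary was the 5′ end of a host for 1857 members and the 3′ end for 1226. For the remaining 3418 members the nearest boundary belonged to another gene or had no known strand. These are left out of the comparison of gene ends. At 1 to 2 kb from the 5′ end the density was 13.3 and 22.9 members per Mb in WT and 12.4 and 3.18 in miR-187, and at the same distance from the 3′ end it was 2.57, 2.73, 1.21 and 0.643. The log2 ratio of the former to the latter was 2.37, 3.07, 3.36 and 2.31 (mean 2.78 ± 0.52, SD, n = 4, exact sign-flip p = 0.13). Over 1 to 5 kb it was 1.67 for all members and 0.93 for those at no internal start window, positive in 4 of 4 libraries in both cases. Internal starts accounted for 35.1% of members at 1 to 2 kb from a 5′ end and for 4.0% of those at 1 to 2 kb from a 3′ end. With host genes cut into 4 equal parts from start to end, the density over all libraries was 9.38, 7.08, 6.15 and 6.03 members per Mb in turn.

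**Figure D3:**
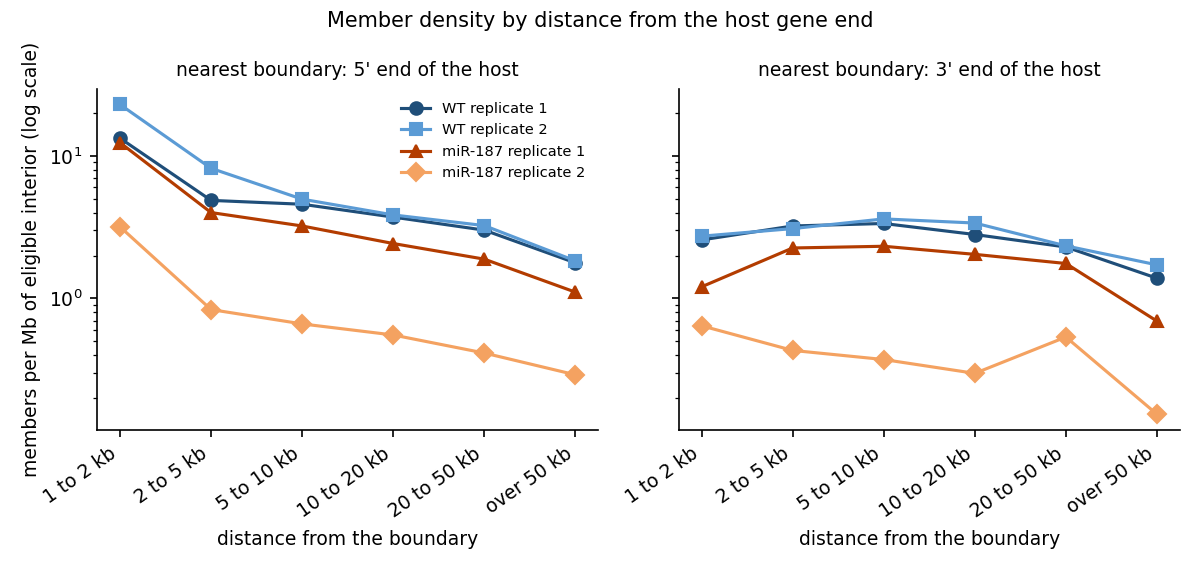
Members per Mb of eligible interior (log scale) against the distance from the nearest gene boundary, where that boundary was the 5′ end (left) or the 3′ end (right) of a host gene of known strand, with 1 line per library. The lines fall steeply from 1 to 2 kb on the left, from 13.3 and 22.9 in WT, while on the right 3 of the 4 lines are lower at 1 to 2 kb than at 2 to 5 kb, the exception being miR187-r2 (0.643 against 0.432).

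Long genes were more likely to hold a member but had fewer per Mb. Genes of 30 to 100 kb held 33.9% of the members and genes of 100 to 300 kb 32.4%. The median length of the 3894 host genes was 60.2 kb, against 21.6 kb for the 18281 protein-coding genes that had any eligible interior. A member was held by 12.0% of the genes of 5 to 30 kb, 30.4% of those of 30 to 100 kb, 53.9% of those of 100 to 300 kb and 64.8% of the 532 genes over 300 kb. The density in genes of 5 to 30 kb was 4.85, 6.03, 3.47 and 0.772 members per Mb in WT-r1, WT-r2, miR187-r1 and miR187-r2, and in genes over 300 kb it was 1.34, 1.35, 0.789 and 0.259. The log2 ratio of genes over 100 kb to genes of 5 to 30 kb was -1.14, -1.24, -1.20 and -1.15, a mean of -1.18 ± 0.05 (SD, n = 4, exact sign-flip p = 0.13). It was -0.95 among members at no internal start window. Genes over 300 kb made up 31.8% of the eligible interior and held 14.4% of the members.

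**Figure D4:**
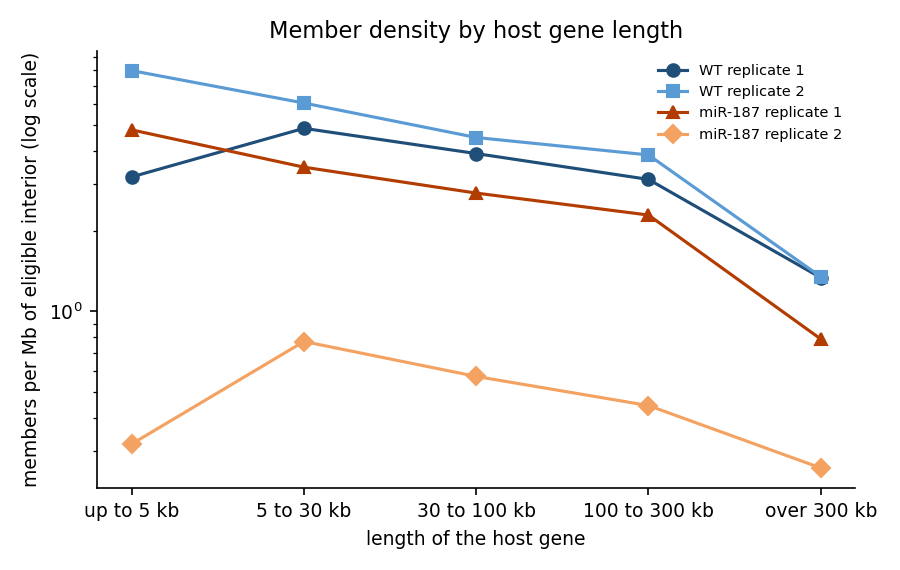
Members per Mb of eligible interior (log scale) in 5 classes of host gene length, with 1 line per library. From 5 to 30 kb up to over 300 kb every line falls, in WT-r1 from 4.85 to 1.34; the class up to 5 kb holds 38 members in all.

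At least 1 member was held by 21.3% of genes with eligible interior, in 11.9% by WT-r1, 12.8% by WT-r2, 8.71% by miR187-r1 and 2.24% by miR187-r2. Most of the hosts (2520) held 1 member, 795 held 2 and 579 held 3 or more. These 579 genes had a median length of 161 kb and held 2441 members, 37.5% of all. Only 30 genes held 3 or more members that were each found in at least 2 libraries. In single lists, 113 and 192 genes held 3 or more in WT, and 59 and 1 in miR-187. A neighbouring member lay within 10 kb for 25.0% of members and within 0.5 kb for 6.71%.

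Arhgap26, which encodes a GTPase-activating protein, held the most members, 19 over 775 kb on chromosome 18. By library these were 6 and 11 in WT and 5 and 1 in miR-187, and 16 of the 19 stood in 1 list alone. The one that was found in 3 lists (chr18:38992777-38993421) gave fold enrichments of 6.47 and 6.35 in WT and 6.14 in miR187-r1. Frmd4a, a cell polarity scaffold gene, held 15, of which none was found in 2 libraries. Tns1, which encodes the focal adhesion protein tensin 1, held 14 within 214 kb, and it was the only one of the 10 leading genes with more members in miR187-r1 (9) than in either WT list (4 and 7). In it 2 members were found in 3 libraries, at chr1:73962843-73963472 (5.88, 5.60 and 4.32 in WT-r1, WT-r2 and miR187-r1) and at chr1:74008455-74008938 (6.06, 5.16 and 6.20).

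Maml3, which encodes a Notch coactivator, held 12 members, of which 5 were found in at least 2 libraries, the highest number of any gene. Its shared member with the highest mean fold enrichment (chr3:51788793-51789328) gave 6.25 and 6.64 in WT and 6.40 in miR187-r1. The transcription factor genes Zfhx3, Bach2 and Nfia held 12, 11 and 10, the coregulator gene Gse1 held 12, the cAMP phosphodiesterase gene Pde4d held 11 and the centrosomal scaffold gene Disc1 held 10. Pde4d, at 1302 kb the longest of these, had 0.859 members per 100 kb of interior, against 6.83 in Tns1 and 0.706 over the whole eligible interior. The members of miR187-r2 in the 10 genes came to between 0 and 2 per gene.

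Among genes with 3 or more members, those leading by density were short, which the measure favours, since 3 members in a small interior give a high density. Cdkn1a, the gene of the cell cycle inhibitor p21, held 3 members within 7.74 kb of interior, or 38.7 per 100 kb. One of them (chr17:29093629-29093898) lay at an internal start and reached 5.51-fold in WT-r2, and another (chr17:29095147-29095584) gave 6.08 and 3.65 in the WT libraries. Prr14 (35.5 per 100 kb) and Ap5b1 (34.5) each held 3 members within 2 kb that were found in 1 WT list each. Mnt, Ubtf, Kdm6b, Csk, Rps6ka1, Sh2d3c and Pola2 followed with 13.8 to 23.2 per 100 kb. These include Mnt, a partner of Max that represses Myc targets, Ubtf, a factor of ribosomal RNA transcription, and Csk, the kinase that restrains Src. Of the 10 genes, 7 had a member at an internal start. None had a member in miR187-r2, where 2.24% of all genes with eligible interior held one.

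Gene lists were used to check the labelled tissue and the described cell type. Of 22 endothelial genes with eligible interior, 5 and 12 held a member in the WT libraries (22.7% and 54.5%, against 11.9% and 12.8% of all genes) and 7 and 2 in miR-187 (31.8% and 9.09%, against 8.71% and 2.24%). Their median length was 62.4 kb, above the median of all genes. Per Mb of interior the endothelial genes held 3.45 and 13.3 members in WT and 4.43 and 0.985 in miR-187, against 2.97, 3.50, 2.09 and 0.458 over all genes. WT-r2, the library with the highest background read density, held 27 of the 38 endothelial members. Over all libraries the density was 2.65 times that of all genes, and without WT-r2 it was 1.73 times. The WT libraries held 7 and 27 of them, and whether depth or cell content had a part in this gap was not tested.

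Among the endothelial genes Ets1, a transcription factor of endothelial and lymphoid cells, and Mecom, a zinc finger factor of endothelial and blood stem cells, held 7 each, and Fli1, another ETS factor, held 5. In Ets1, 1 and 5 members were seen in WT and 3 and 0 in miR-187, and 2 were found in 2 libraries. The vascular receptor gene Flt1, the endothelial phosphatase gene Ptprb and the ETS factor gene Erg held 3, 3 and 2 members, all in WT-r2 alone. The member in Tek itself, the receptor whose promoter drives the transgene (chr4:94746454-94746791), gave 5.04 in WT-r2 and 5.60 in miR187-r1. In Pecam1, which encodes CD31, a member 20596 bp from the boundary (chr11:106674622-106674996) gave 5.51 and 4.10 in the same libraries. Of 2 members in Epas1, the hypoxia-inducible factor 2 alpha gene, one gave 5.95 and 5.19 in these libraries and the other 3.46 in WT-r2 alone. The member in Esam, an adhesion molecule of endothelial junctions (chr9:37530644-37531310), was the reverse, with 5.31 and 4.73 in miR-187 and no peak in WT.

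Of 22 cardiomyocyte genes, 5 and 4 held a member in WT and 3 and 1 in miR-187, which is 22.7%, 18.2%, 13.6% and 4.55%, against 11.9%, 12.8%, 8.71% and 2.24% of all genes. Their density was 4.01 and 2.23 members per Mb in WT and 2.23 and 0.445 in miR-187, above that of all genes (2.97, 3.50, 2.09 and 0.458) in WT-r1 and below it in WT-r2. Over all libraries it was 7.57, against 7.06 for all genes. Besides Tpm1, the sodium-calcium exchanger gene Slc8a1 held 5, of which a pair was found in 2 libraries (5.95 and 7.14 in WT for the one, and 5.88 in WT-r1 and 4.93 in miR187-r1 for the other). The 10 fibroblast genes held 2 members, both in WT-r2, the 8 mural genes 2, and the 7 immune genes 2, both in WT-r1. The share of genes with a member was 20%, 25% and 28.6% in these 3 lists, against 21.3% of all genes, and the density over all libraries 4.27, 7.60 and 6.31 per Mb, against 7.06. The 3 erythroid genes with interior held none. The 14 neuronal genes, giants with a median length of 1564 kb, held 7, 3, 2 and 6 members in WT-r1, WT-r2, miR187-r1 and miR187-r2. Their density was 0.326, 0.140, 0.0931 and 0.279 per Mb, in each library below that of all genes. By share of genes they stood above all genes in each library, with 35.7%, 14.3%, 14.3% and 28.6% holding a member. None of their members was found in 2 libraries. In miR187-r2 the density of this list stood nearest to that of all genes (0.279 against 0.458), and 3 of the 6 members lay in the single gene Ctnna3. Whether Ctnna3 or other genes of the list named neuronal are active in heart was not checked.

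**Figure D5:**
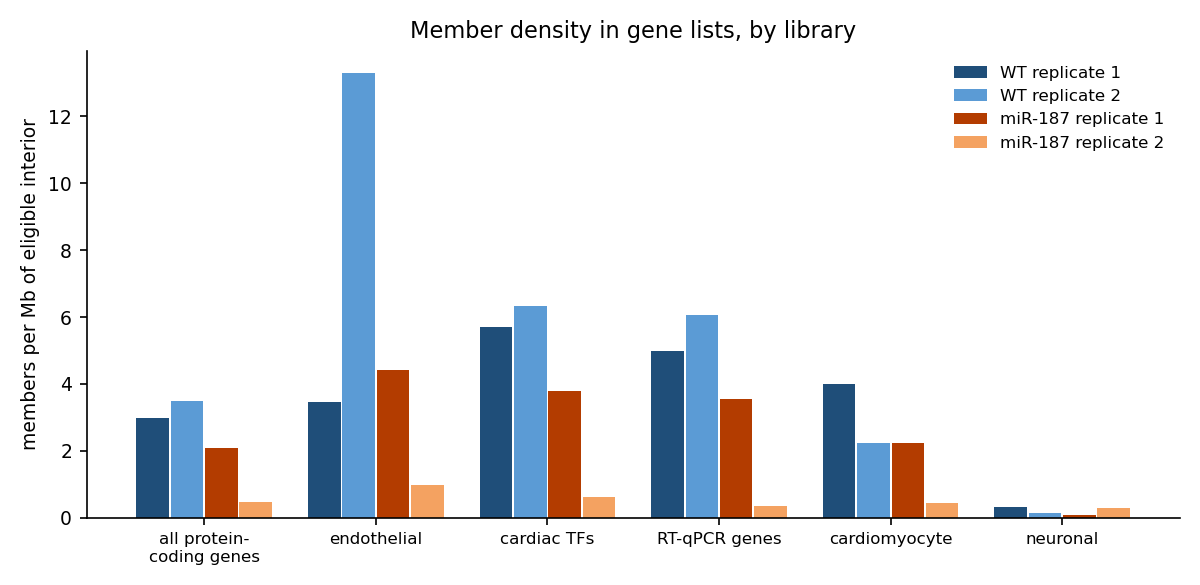
Members per Mb of eligible interior in each library for all protein-coding genes and for 5 gene lists (cardiac TFs, cardiac transcription factors; RT-qPCR genes, a list chosen by the study). The endothelial bar of WT-r2 reaches 13.3, and the neuronal bars stay between 0.0931 and 0.326.

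Among 15 cardiac transcription factor genes, 7 (46.7%, against 21.3% of all genes) held 17 members. Their density was 5.70 and 6.34 per Mb in WT and 3.8 and 0.634 in miR-187, against 2.97, 3.50, 2.09 and 0.458 over all genes, and their median length was 72.8 kb. Mef2c, which acts in both heart muscle and endothelium, held 7, of which 3 were found in 2 libraries. These gave 4.83 in WT-r2 and 6.55 in miR187-r1 (chr13:83518306-83518659), 3.51 in WT-r1 and 4.50 in miR187-r1 (chr13:83524270-83524896), and 5.83 and 4.38 in WT (chr13:83572049-83572565). The Mef2a member was found in 3 libraries (4.31 and 5.25 in WT, 5.04 in miR187-r1), as was 1 of the 3 Tead1 members (4.76 and 4.51 in WT, 5.88 in miR187-r2). Single shared members lay in Gata4 (3.77 in WT-r2 and 4.73 in miR187-r1) and Zfpm2 (3.62 and 5.73).

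Another list was of genes that were followed by RT-qPCR, chosen by the study itself. It held 29 genes, of which 26 had eligible interior. A member was held by 6 and 9 of these in WT and by 7 and 1 in miR-187, which is 23.1%, 34.6%, 26.9% and 3.85%, against 11.9%, 12.8%, 8.71% and 2.24% of all genes. Their median length was 37.7 kb, against 21.6 kb for all genes. Per Mb of interior they held 4.99 and 6.06 members in WT and 3.56 and 0.356 in miR-187. Over all genes the density was 2.97, 3.50, 2.09 and 0.458, so the list stood below all genes in miR187-r2. Besides Mef2c, those with a member in 2 or more libraries were Fstl1, Nr2f2, Ptpn1 and Cdh13. Fstl1, a secreted glycoprotein gene, had beside its miR-187-only member another (chr16:37814244-37814867) that gave 7.61 and 5.26 in WT and 4.79 in miR187-r1. The member in Nr2f2, a nuclear receptor gene of venous identity, gave 4.36 in WT-r2 and 6.25 in miR187-r1. Cdh13, a cadherin gene of 1185 kb, held 9, of which 1 was found in 2 libraries (4.41 in WT-r1 and 6.41 in miR187-r1).

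Of the 9 genes of cohesin and its loaders with interior, Pds5a and Stag1 held 1 member each (22.2% of the list, against 21.3% of all genes), at 2.12 members per Mb against 7.06 over all genes. That of Stag1, a cohesin subunit gene, lay at an internal start (chr9:100642607-100643719) and gave 9.75 and 6.85 in WT and 4.63 in miR187-r1.

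At the limit of 1 kb, the members just inside had midpoints 1002 bp from a boundary, in Elp5, Iqgap3 and Tdrd7, each with a peak in 1 list (fold enrichments 5.10, 3.91 and 5.21). Just outside, at 998 to 999 bp, lay regions in Camta2 (4.30), Slc10a7 (4.50) and Dok2, the last with peaks in both WT lists (5.63 and 5.42).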

How the data were processed

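ATAC-seq peak lists of 4 libraries were used, 1 per library, with replicates not pooled. Per the submitters' processing notes the build was mm10 and the tools named were Bowtie2 2.2.6, SAMtools 1.10, deepTools 3.3.2, MACS2 2.2.7.1, HOMER 4.11, FastQC, ChIPseeker and DiffBind. Every deposited list held 4 peak-caller columns: a score, the fold enrichment over local background, −log10 p and −log10 q. Values were ranked within a list. Genes came from RefSeq (GRCm38.p6), and starts, strands and sequences from the RefSeq start table, which lacks chromosome 18. A region in several genes counted for each host, or for the shortest host in densities. Summit reads and background were solved from fold and p as a whole-number pileup with a Poisson tail (within 0.0005 in −log10 p), and the background was the lowest value shared by 1% of peaks. Reads without molecular identifiers are not independent molecules, so Wilson intervals cover counting error only.

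Group means were compared by 2-sided exact permutation and within-library differences by 2-sided exact sign-flip tests. A region shared by several libraries enters the recovery of each, so recovery gaps are not independent between libraries, although the sign-flip test treats them so. Code was tested on simulated data. Named genes were the 10 hosts with most members, the 10 densest with 3 or more, the 10 strongest members in all lists, 5 WT-only and 5 miR-187-only members, list genes with a member in 2 or more libraries, and regions at the 1 kb limit; other genes, and the printed stretches, were chosen after their values were seen. Members and lists were chosen with earlier results of these data known. One gene list is not reported here. Alternatives were a −log10 q of at least 5, equal list lengths, a 50% overlap, summits, a 3 kb limit, fold enrichment, strength deciles, joining at 500 bp, omission of each library and a replicate block. Results at internal starts, by side and by list density were added after seeing the data. Analyses used Python, numpy, pandas, scipy and statsmodels.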

Additional observations from a re-analysis of the deposited data

How the results depend on the processing

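The mean differences in recovery and strength against boundary regions, in density by length, distance and side, and in recovery at internal starts against other members kept their sign under every alternative run on them. Against boundary regions, strength was -3.90 points with −log10 q at 5 or more (exact sign-flip p = 0.5) and -4.62 at equal list lengths (exact sign-flip p = 0.25), and recovery was -15.4 points at equal list lengths. Recovery at internal starts minus that at boundary regions stayed positive, from 2.81 (without miR187-r2) to 9.97 points (at 3 kb). Differences from intergenic regions, and those in strength and width at internal starts, were not run under alternatives. Leaving out 1 library gave a range of -33.8 to -28.3 points for recovery against boundary regions, -13.5 to -11.2 for strength, -1.20 to -1.17 for length, 1.23 to 1.36 for distance, 38.0 to 42.8 points for recovery at internal starts and 10.6% to 12.3% for the share of members at internal starts. With 3 kb in place of 1 kb that share was 7.70%, the distance ratio 0.67 and the side ratio 0.80.

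The genotype difference in member share, and the within minus between group overlap, did not hold their sign. Differences in members and host genes turned only at equal list lengths. The difference in member share (-0.518 points) was 4.27 with −log10 q at 5 or more and 6.72 at equal list lengths, and ranged from -1.87 to 0.940 with a library left out. The difference was -1804 for members and -1251.5 for host genes as deposited. With −log10 q at 5 or more it was -536 and -469 (exact permutation p = 0.667 for both). With a library left out it ranged from -2556 to -1051 and from -1841 to -660. At equal list lengths it was 98 and 92.5, but there the list of miR187-r2 was not cut, so this setting cannot compare the genotypes. The replicate block left the differences in members, host genes and member share at -1804, -1251.5 and -0.518 points. Their exact sign-flip p was 0.5, 0.5 and 1, since 2 pairs allow no p under 0.5. Within minus between group overlap ranged from -6.50 to 12.4 points without 1 library. The cause was not tested.

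Counts moved with the threshold. With −log10 q at 5 or more, 1745 members among 7557 regions remained. There were then 101 WT-only members, 3 miR-187-only members, 47 genes with 3 or more members and 20.8% of members at internal starts. Equal list lengths left 1073 members among 4536 regions, with 34 WT-only members, 14 miR-187-only members, 13 such genes and 19.9% at internal starts. At 3 kb there were 4 miR-187-only members among 5178 members. Under these settings the WT-only and miR-187-only sets were counted over members only, without the share over all regions. With a library left out, WT-only members numbered 419 to 2457, miR-187-only members 15 to 1055 and genes with 3 or more members 313 to 552, where fewer lists had to hold or lack a peak. The endothelial density ratio (log2) was 1.41 as reported, ranged from 0.79 (without WT-r2) to 1.66 with a library left out, and was 0.76 at equal list lengths. Summit reads of 6 to 13 at the median limit how finely a member can be compared between libraries, and the absence of a peak is not the absence of open chromatin.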
